A study of Saccharomyces cerevisiae with 6 samples.

Results

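Losing *PBP1* in stationary phase cells that already lacked *CCR4* was followed here by the ratio of 2 microarrays, *ccr4Δ pbp1Δ* over *ccr4Δ*, across all genes of the array. These are 2 of the 6 arrays of the series. The others hold the same mutants of the budding yeast *Saccharomyces cerevisiae* in log phase and the wild-type strain in both phases, and each strain and phase has 1 array. Every strain and growth phase was grown in YPD, a rich glucose medium, at 28°C. Both strains compared carry the *CCR4* deletion, so the ratio describes what *PBP1* adds to cells without *CCR4* and not what it does in wild-type cells. The study's strains are of the W303 background, and its *ccr4Δ* strain is *MAT*a, auxotrophic for several nutrients, and has *CCR4* replaced by the *LEU2* gene of *Candida glabrata*. The genotype and markers of the *ccr4Δ pbp1Δ* strain, and whether the growth phases of a strain came from 1 culture, are not given in the sources used here. The array gave a value for 6225 genes, of which 5880 were well above background on both stationary phase arrays and were compared.

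Ccr4 is the main deadenylase of the Ccr4-Not complex. It shortens the poly(A) tail of an mRNA, which is the usual first step before decapping and decay. Pbp1, the yeast relative of human ataxin-2, binds the poly(A)-binding protein Pab1 and is known as a negative regulator of poly(A) tail trimming and as a part of stress granules. In cells grown on respiratory carbon sources it is also known to take part in the control of the TORC1 kinase, which links nutrient supply to growth. In stationary phase the glucose of YPD is spent, ribosome production is low, and cells rely on respiration and stored carbon.

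The level of a gene below is the log2 of its processed signal minus the 75th percentile of its array, so a level of 0 is the signal at that percentile. The ratio is the difference of 2 such levels. With 1 array per strain and growth phase there are no replicates, so no p-value can be given, and the ratios hold for this pair of cultures. A gene is called higher or lower when it was at least 1.5-fold apart (0.58 on the log2 scale) and well above background on both arrays. The only error that can be measured is between the 2 spots of each probe, whose ratios had a pooled SD of 0.071. Of the 1241 genes past the limit with 1 probe, 1119 had both spot ratios past it. The 75th percentile signal was 10689 on the *ccr4Δ* array and 12517 on the *ccr4Δ pbp1Δ* array, and 98.4% and 94.5% of the genes were well above background. Both arrays lay on 1 slide with every other array but that of wild-type cells in log phase, which lay on a second slide, so slide and condition cannot be told apart in levels set against it. No spot on either compared array was saturated.

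The targeted genes matched the labels. *PBP1* had a level of 0.07 in *ccr4Δ* cells and -0.12 in wild-type cells in stationary phase, and was not well above background in *ccr4Δ pbp1Δ* cells, where its mRNA was at least 237-fold lower. *CCR4* had a level of -2.45 in wild-type cells and was not well above background in either mutant. The genes next to *PBP1* on the chromosome stayed within the limit, with a ratio of 0.28 for *ATF2* and 0.07 for *OKP1*. Of the auxotrophic marker genes, *URA3* was higher (0.81) and *HIS3* lower (-0.80) in *ccr4Δ pbp1Δ* cells. Both mutants showed the stationary phase pattern. The median ratio of stationary over log phase was 1.58 in *ccr4Δ* and 3.08 in *ccr4Δ pbp1Δ* cells for 28 stationary phase genes, and -1.67 and -2.05 for 105 ribosome biogenesis genes.

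The comparison in stationary phase gave 612 genes higher in *ccr4Δ pbp1Δ* cells, 10.4% of the 5880 measured, and 636 genes lower, or 10.8%. At the 75th percentile scaling more genes were lower than higher by the larger amounts. At least 2-fold, 98 genes were higher (1.67%) and 217 lower (3.69%), and at least 4-fold, 2 were higher and 27 lower. The quartiles of the ratio were -0.28 and 0.33 around a median of 0.04, which the scaling largely sets, since the median was 0.27 with no scaling and -0.16 with *ACT1* as the reference. The split depends on the scaling of the arrays. Of the genes past the limit, 49.0% were higher as given, 58.2% after scaling to the median, 80.5% with no scaling and 17.9% with *ACT1* as the reference. These last 2 settings shift every gene alike, by 0.23 and -0.20, and the counts of genes higher or lower and above or below 0 in what follows are for the 75th percentile scaling unless another is named. The shares over all genes, 10.4% higher and 10.8% lower, are to be read beside the counts of each list below. Each array holds RNA of a whole culture, so fewer cells with a transcript and less of it per cell cannot be told apart.

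**Figure D1:**
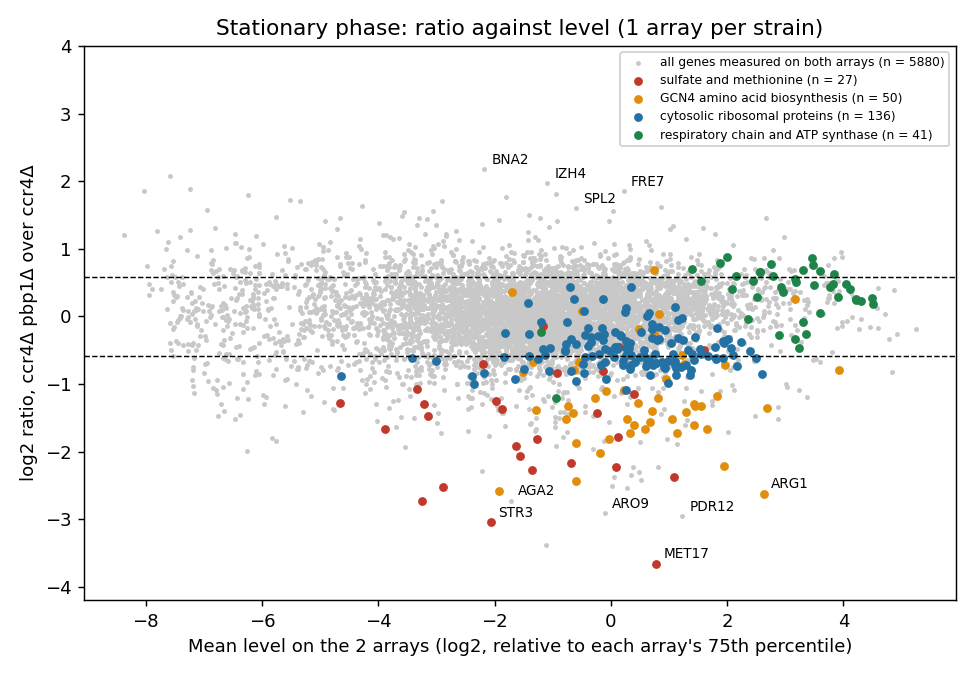
Each point is a gene measured on both stationary phase arrays, with its mean level on the 2 arrays on the x axis and the log2 ratio of *ccr4Δ pbp1Δ* over *ccr4Δ* on the y axis. Coloured points are 4 gene lists, and dashed lines mark 1.5-fold. The 24 sulfate and methionine genes and 42 amino acid synthesis genes past the limit lie below 0 over a wide range of levels, while most respiratory genes lie at the bright end above 0.

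Genes of sulfur and amino acid supply stood at the low end of the ratios. Of the 15 lowest genes, 5 belong to the sulfate and methionine list and 3 to the amino acid synthesis list. The lowest gene was *MET17*, which encodes the enzyme that joins sulfide to O-acetylhomoserine to make homocysteine. Its level was 2.61 in *ccr4Δ* and -1.05 in *ccr4Δ pbp1Δ* cells, which is 12.7-fold lower in the double mutant, with a ratio of -3.67 and -3.66 in the 2 spots. In wild-type cells in stationary phase its level was -1.19, so the high array of the 3 was that of *ccr4Δ*. The list of sulfate and methionine genes had 24 of 27 members lower and none higher, where 10.8% of all genes were lower. The median ratio of the list was -1.47, with all 27 members below 0, against 0.04 over all genes. The direction was the same under each scaling tried, where 23 to 26 members were lower.

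The fall covered the pathway from uptake to S-adenosylmethionine. All 10 genes of sulfate uptake and reduction were lower, with a median of -1.64. Among them *SUL2*, a sulfate permease, had levels of -1.88 in *ccr4Δ* and -4.61 in *ccr4Δ pbp1Δ* cells and was 6.65-fold lower. The sulfite reductase subunits *MET10* and *MET5* were 4.84-fold and 4.50-fold lower. The kinase and reductase that act before them, encoded by *MET14* and *MET16*, had ratios of -1.91 and -2.06. In the later steps 6 of 7 genes were lower. *STR3*, encoding a cystathionine β-lyase, was 8.28-fold lower with levels of -0.54 and -3.59. *MET2*, which makes the acetylated acceptor of sulfide, was 5.73-fold lower, and the methionine synthase gene *MET6* 4.71-fold lower. The member that stayed within the limit was *CYS4*, the cystathionine β-synthase gene, at -0.50.

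Transport and use of methionine moved the same way. All 6 genes of this group were lower, and the high-affinity methionine permease gene *MUP1* was 5.19-fold lower, with levels of 2.27 and -0.11. *SAM3*, the S-adenosylmethionine permease gene, had a ratio of -1.81, and *SAM1* and *SAM2*, encoding the synthetases, had -1.43 and -0.84. *SAM4*, a homocysteine methyltransferase gene outside the list, was 5.35-fold lower, and the open reading frame YMR321C was 5.67-fold lower. The levels of these 2 were close on every array, at 1.74 and 1.27 in *ccr4Δ* and -0.68 and -1.23 in *ccr4Δ pbp1Δ* cells. Hybridisation of 1 transcript to both probes was not checked, so they may not be separate falls. Of the 4 regulator genes of the list 2 were lower. *MET4*, the transcriptional activator of the pathway, had levels of -1.10 and -1.24 and a ratio of -0.14. Its DNA-binding partners *MET32* (-1.08) and *MET28* (-0.81) were lower, and *MET30*, encoding the F-box protein that restrains Met4, was at -0.45.

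The amino acid synthesis list, genes under the starvation-induced activator Gcn4, had 42 of 50 members lower and 1 higher. Its median ratio was -1.31, and under the scalings tried 34 to 43 members were lower. *GCN4* itself was at 3.04 in *ccr4Δ* and 3.29 in *ccr4Δ pbp1Δ* cells, a ratio of 0.25. Its mRNA level is not the main point of control, since Gcn4 is known to be regulated in translation. The arginine genes had the lowest median of the branches. All 10 were lower with a median of -1.64, and *ARG1*, the argininosuccinate synthetase gene, went from a level of 3.94 to 1.32, 6.15-fold lower. *ARG8* and *ARG3*, which act earlier in the pathway, were 5.97-fold and 5.42-fold lower, and *ARG4*, the last enzyme, 4.04-fold.

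The other branches showed the same direction with different size. In histidine synthesis 5 of 6 genes were lower, with *HIS4* at 3.06 in *ccr4Δ* and 0.84 in *ccr4Δ pbp1Δ* cells (4.64-fold lower). In lysine synthesis 6 of 7 were lower, with the aminoadipate reductase gene *LYS2* at -1.87. Branched-chain (6 of 7 lower), aromatic (7 of 8), asparagine (2 of 2) and homoserine and threonine synthesis (4 of 5) had medians of -1.29, -1.26, -1.46 and -1.08. The aspartate kinase gene *HOM3*, at the entry to the last of these, had a ratio of -1.81. Serine synthesis differed. Of its 4 genes 2 were lower and 1 was higher, *SER3*, a phosphoglycerate dehydrogenase gene named after its value was seen, at 0.68.

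**Figure D2:**
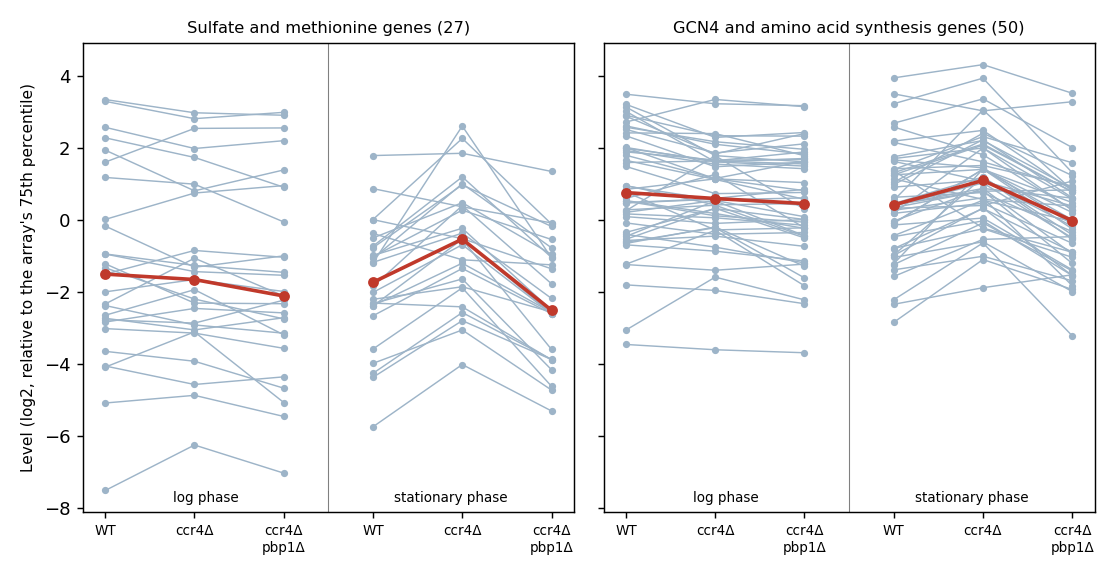
Levels (log2, relative to the 75th percentile of the array) of the 27 sulfate and methionine genes and the 50 *GCN4* and amino acid synthesis genes on all 6 arrays. Thin lines are genes and the thick line is the median of the list. In stationary phase the median of the left panel was -1.72 in wild-type cells, -0.53 in *ccr4Δ* and -2.50 in *ccr4Δ pbp1Δ*, and that of the right panel was 0.42, 1.1 and -0.01 in the same order. In log phase both medians of the mutants lay within 0.5 of each other. The wild-type log phase array is on a separate slide from the other 5.

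The wild-type array places these ratios. Over the sulfate and methionine genes the median ratio against wild-type cells in stationary phase was 1.29 for *ccr4Δ* and -0.35 for *ccr4Δ pbp1Δ*, and over the amino acid synthesis genes it was 0.46 and -0.54. These ratios share the wild-type array and the arrays compared above, so they are not further evidence of the difference. Relative to log phase cells of the same strain, the sulfate and methionine list stood at 0.87 in *ccr4Δ* and -0.24 in *ccr4Δ pbp1Δ*. The wild-type strain of the study is *MAT*α, so strain and *CCR4* cannot be told apart in the ratios against it.

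Genes that carry amino acids across the plasma membrane were divided. Of 19 permease genes 7 were lower and 3 higher, with a median of -0.34 that stayed below 0 under each scaling. Besides *MUP1*, the branched-chain amino acid permease gene *BAP2* had levels of 1.93 and -0.30 and was 4.68-fold lower. *MUP3*, a low-affinity methionine permease gene, and *BAP3* had ratios of -1.50 and -1.25. The 3 higher genes were *PUT4*, the proline permease gene, at 1.14, *SSY1*, the amino acid sensor gene, at 0.67, and *DIP5*, a glutamate and aspartate permease gene, at 0.60. The general amino acid permease gene *GAP1* was at -0.71.

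Several genes for the breakdown of amino acids to fusel alcohols and acids, known as the Ehrlich pathway, were also low. *ARO9*, an aromatic aminotransferase gene, had levels of 1.35 in *ccr4Δ* and -1.55 in *ccr4Δ pbp1Δ* cells and was 7.51-fold lower. *ARO10*, the decarboxylase gene of the next step, was 3.57-fold lower. *PDR12*, which encodes the plasma membrane exporter of weak organic acids, went from 2.71 to -0.25 and was 7.78-fold lower. Its level in wild-type cells was 3.70 in stationary and -0.03 in log phase, so on the *ccr4Δ pbp1Δ* array it stood near the log phase value, which was read on the other slide. *PDC5*, a pyruvate decarboxylase gene, was 3.63-fold lower. Of the 11 genes of this division, made after the values were seen, 7 were lower, and *BAT2*, the cytosolic branched-chain aminotransferase gene, had a ratio of 0.06. *TPO2*, a polyamine exporter gene, was 5.79-fold lower, with levels of 1.54 and -0.99.

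Nitrogen genes repressed in the presence of good nitrogen sources had 11 of 30 members lower and 2 higher. Their median was -0.22 as given and 0.01 with no scaling, so the list as a whole has no settled direction. *MEP2*, the high-affinity ammonium permease and sensor gene, was 3.78-fold lower (0.01 against -1.91). *GLT1*, encoding glutamate synthase, had a ratio of -1.19, the urea amidolyase gene *DUR12* -1.17 and the arginase gene *CAR1* -1.10. *PUT4* was the highest member and *DAL2*, the allantoicase gene, followed at 0.65. In purine and one-carbon synthesis 7 of 22 genes were lower and 1 higher, and the median of -0.19 turned to 0.04 with no scaling. *ADE17*, which carries out the last 2 steps to inosine monophosphate, had a ratio of -1.79 and its activator *BAS1* -1.26, while *IMD2*, an inosine monophosphate dehydrogenase gene, was at 0.82.

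Ribosomal genes were low as a group and by a small amount each. Of 136 cytosolic ribosomal protein genes, 58 were lower and none was higher, and 125 had a ratio below 0. Their median was -0.53, with large and small subunit genes alike at -0.55 and -0.50, and the direction was the same under each scaling. The size of the count was not, with 15 lower and 2 higher when the arrays were not scaled and 91 lower with *ACT1* as the reference. *RPP2A*, a stalk protein gene, was lowest at -1.08, with levels of 0.79 and -0.29. *RPL5*, whose protein binds 5S rRNA, had a ratio of -0.99. *RPL15B* was highest, at 0.44, within the limit. Many of these genes are pairs of nearly identical copies, and hybridisation between copies was not checked. The median level of the list was 3.53 in log phase *ccr4Δ* cells and 0.62 in stationary phase, so the difference between the double and single mutant was small beside the change with growth phase.

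Ribosome biogenesis genes had 20 of 105 lower and 1 higher, with a median of -0.31 that stayed below 0 under each scaling, where 8 to 43 were lower. *RRP1* and *UTP21*, of the large and small subunit processing machinery, had ratios of -1.44 and -1.22, and *MAK21* was higher at 0.76. Among 30 genes of RNA polymerases I and III and their factors 7 were lower and 2 higher. *RRN3*, the initiation factor of polymerase I, was at -1.14 and its subunit genes *RPA43* and *RPA49* at -0.99 and -0.89, while *RRN10*, of the upstream activation factor, was at 1.22 from a dim signal (levels of -7.07 and -5.85). The median of this list, -0.18, turned to 0.05 with no scaling.

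**Figure D3:**
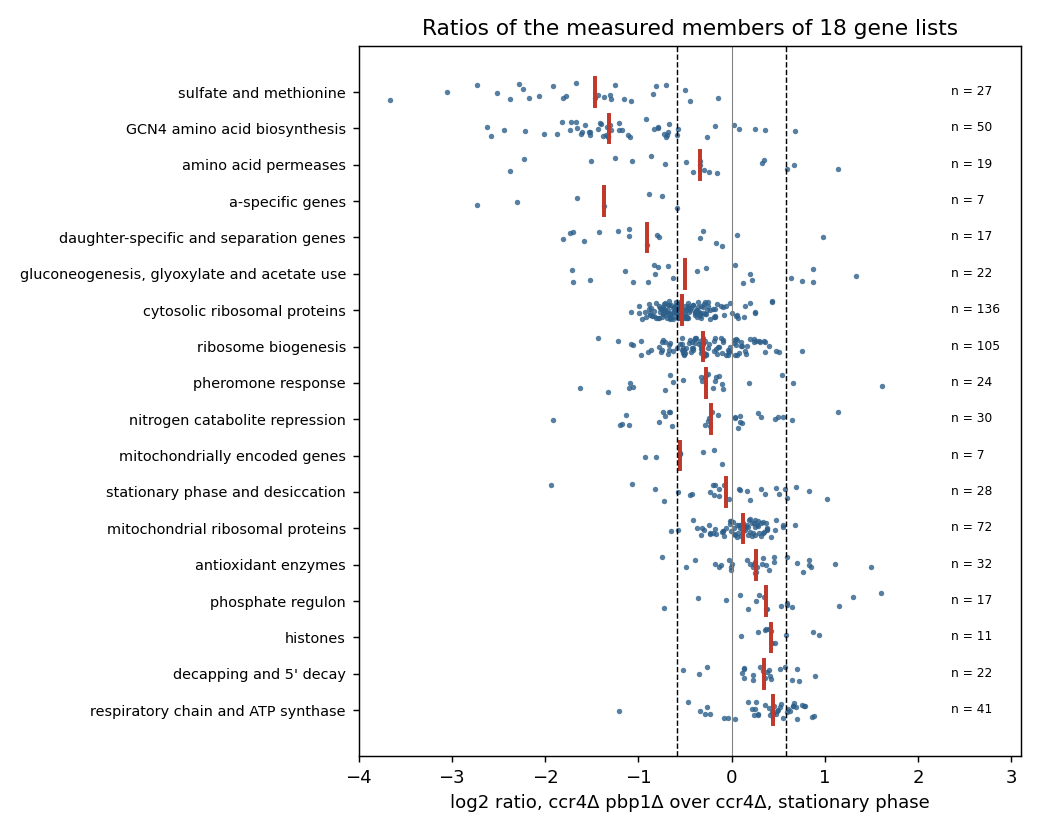
Each point is the log2 ratio of *ccr4Δ pbp1Δ* over *ccr4Δ* in stationary phase for 1 measured member of a gene list. Red bars are list medians, dashed lines mark 1.5-fold, and the vertical scatter within a row has no meaning. The sulfate and methionine, amino acid and a-specific lists have medians below -1.3, and of the lists plotted the respiratory list has the highest median, 0.44.

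Most nuclear genes for respiration went the other way from ribosomal genes. Of 41 genes of the respiratory chain and ATP synthase, 13 were higher, where 10.4% of all genes were, and 1 was lower. The median ratio was 0.44, and 33 were above 0. All 14 ATP synthase genes were above 0 with a median of 0.60, and 8 of them passed the limit. *ATP5* had levels of 1.56 in *ccr4Δ* and 2.44 in *ccr4Δ pbp1Δ* cells (1.84-fold higher) and *ATP17* was 1.82-fold higher. In cytochrome c oxidase 3 of 9 genes were higher, with *COX8* at 0.78, and in succinate dehydrogenase 2 of 4, with *SDH3* at 0.67. The cytochrome bc1 genes had a median of 0.43 with none past the limit. The 1 lower gene, *NDE2*, encodes an external NADH dehydrogenase and had a ratio of -1.21. All 3 NADH dehydrogenase genes and the 2 cytochrome c genes were below 0, with medians of -0.26 and -0.40. The list median stayed above 0 under each scaling, but 8 genes were higher after quantile normalization and 25 with no scaling. With *ACT1* as the reference 2 were higher and 2 lower.

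Genes of the mitochondrial genome did not follow. Of 7 measured, none was higher and 2 were lower, *COX2* at -0.93 and *VAR1*, the ribosomal protein gene of the mitochondrial genome, at -0.81, and all 7 were below 0 with a median of -0.55. The nuclear genes of the mitochondrial ribosome lay near the median of all genes, at 0.13, with 1 of 72 higher and 1 lower. In the tricarboxylic acid cycle 2 of 17 genes were higher and 3 lower, where 10.4% and 10.8% of all genes were. The 2 higher genes are the succinate dehydrogenase genes already counted in the respiratory list. With *ACT1* as the reference none of the 17 was higher and 5 were lower. *CIT3*, a mitochondrial citrate synthase gene, was 4.89-fold lower with levels of -1.07 and -3.36.

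Genes for growth on non-fermentable carbon went in both directions. The list of 22 had 11 lower and 5 higher, with a median of -0.50. The carnitine shuttle, which moves acetyl units into mitochondria, was low in 3 of 4 genes. *CRC1*, the carrier, had levels of 0.10 and -1.61, and *YAT2*, an acetyltransferase, 2.87 and 1.16, each 3.26-fold lower. *CIT2*, the peroxisomal citrate synthase gene, was 2.86-fold lower, and *ICL1*, isocitrate lyase, 1.77-fold. In the other direction, *REG2* (1.34), *FBP1* (0.88), the gene of fructose-1,6-bisphosphatase, *IDP2* (0.87), *SFC1* (0.76) and the activator *ADR1* (0.64) were higher. *PCK1*, which encodes the committed enzyme of gluconeogenesis, was at 0.13. Of these higher genes all but *REG2* were named after their values were seen, and after quantile normalization 2 of the 22 were higher.

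In glycolysis 3 of 22 genes were higher and 3 lower, near the shares of 10.4% and 10.8% over all genes. *PGK1*, the phosphoglycerate kinase gene, had a level of 0.35 in wild-type, 2.39 in *ccr4Δ* and 3.57 in *ccr4Δ pbp1Δ* cells in stationary phase, which made it 2.26-fold higher in the double mutant. In log phase the same ratio was -0.10. *ACT1*, the actin gene, had a ratio of 0.20, with levels of 2.96 and 3.16. Among genes of hexose transport and sensing 7 of 20 were lower and 1 higher. *HXT2* and *HXT4*, high-affinity transporters, had ratios of -0.99 and -0.98, and *HXT5*, the transporter gene of starved cells, was 2.46-fold higher, with levels of 0.38 and 1.67. Storage carbohydrate genes had 3 of 21 lower and 1 higher, where 10.8% and 10.4% of all genes were. The lower ones included *TPS3* of the trehalose synthase complex at -0.92 and *GPH1*, glycogen phosphorylase, at -0.79. The higher one was the glycogenin gene *GLG2* at 0.76.

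Genes specific to *MAT*a cells were low in the double mutant. Of 7 such genes 6 were lower and the seventh, *ASG7*, sat at the limit with -0.58. *AGA2*, the adhesion subunit of a-agglutinin, had levels of -0.36 in *ccr4Δ* and -3.09 in *ccr4Δ pbp1Δ* cells and was 6.63-fold lower. *MFA1*, encoding the a-factor pheromone, went from 1.63 to -0.67 and was 4.94-fold lower. *STE2*, the receptor of α-factor, was 3.16-fold lower and *BAR1*, the protease that degrades α-factor, 2.58-fold. The other a-factor gene, *MFA2*, was 1.85-fold lower and its exporter *STE6* 1.68-fold. The median ratio was -1.37, and 5 to 7 genes were lower under the scalings tried. All 7 remained well above the wild-type array, where the median level was -5.51 against -0.46 in *ccr4Δ* and -2.08 in *ccr4Δ pbp1Δ* cells. The wild-type strain is *MAT*α, so its level is no baseline for the loss of *CCR4*, and mating type and *CCR4* cannot be told apart in this gap.

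α-specific genes showed no common direction. Of 3 measured, *STE3*, the a-factor receptor gene, was 2.60-fold higher, with levels of -4.68 and -3.30, *MF(ALPHA)1* was at 0.64 and *SAG1* at -0.78. *STE3* and *MF(ALPHA)1* were dim on both mutant arrays, and *STE3* had a level of 1.51 in log phase wild-type cells, which are *MAT*α. From the order of these markers both mutants read as *MAT*a. YKL177W, whose systematic name lies next to that of *STE3*, was 3.67-fold higher from a dimmer signal (levels of -8.18 and -6.30). The pheromone response list had 8 of 24 genes lower and 2 higher, with a median of -0.28. *FUS1*, the cell fusion gene, was 3.08-fold lower, *AGA1*, the anchor of a-agglutinin, 2.50-fold, and *FIG1* and *FIG2* had ratios of -1.09 each. The transcription factor gene *STE12* was at -0.10 and *FAR1*, the cell cycle inhibitor gene of the pathway, at -0.27. *PRM4* (1.61) and *FUS2* (0.66, named after its value was seen) were higher.

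**Figure D4:**
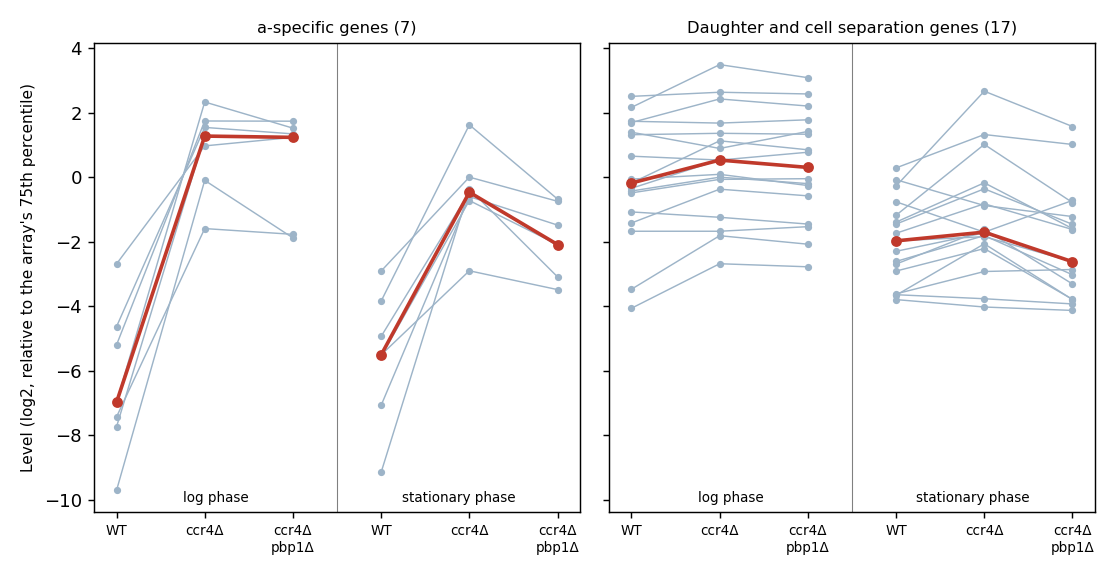
Levels (log2, relative to the 75th percentile of the array) on all 6 arrays of the 7 a-specific genes and the 17 daughter and cell separation genes. Thin lines are genes and the thick line is the list median. In log phase the a-specific median was 1.28 in *ccr4Δ* and 1.24 in *ccr4Δ pbp1Δ* cells, while in stationary phase it was -0.46 and -2.08. Wild-type cells in log phase were measured on a separate slide, and the wild-type strain is *MAT*α.

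The list of daughter-specific and cell separation genes was low. It also holds genes with other roles in the cell cycle, such as *SIC1* and *CDC6*. Of 17 genes 11 were lower and 1 higher, with a median of -0.90, and 9 to 11 were lower under each scaling. *EGT2* had levels of 1.02 in *ccr4Δ* and -0.78 in *ccr4Δ pbp1Δ* cells and was 3.49-fold lower. *SCW11* and *DSE2*, which encode glucanase-like proteins, were 3.32-fold and 3.25-fold lower, *DSE1* 2.98-fold and the chitinase gene *CTS1* 2.68-fold. *RME1*, an inhibitor of meiosis, was the 1 higher gene at 0.98. Of 37 genes of cell wall structure, a list that shares *PIR1* with the one above, 8 were lower and 3 higher. Their median of -0.12 turned to 0.11 with no scaling, where 4 were lower and 3 higher. The chitin synthase gene *CHS1* was at -1.41, the glucanase gene *EXG1* at -1.37 and the sporulation glucanosyltransferase gene *GAS4* at 1.45. *FLO11*, the main adhesin of invasive growth, was 2.93-fold lower, at -3.24 and -4.79.

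Of the B-type cyclin genes, on which the study centres, *CLB6* was the 1 gene of the 6 past the limit, 1.72-fold lower with levels of -5.00 in *ccr4Δ* and -5.78 in *ccr4Δ pbp1Δ* cells, and it was dim on both. In wild-type cells in stationary phase it was at -8.12. *CLB1*, *CLB2*, *CLB3* and *CLB4* had ratios of -0.14, -0.24, 0.04 and -0.38, and *CLB5* had 0.47. With no scaling, *CLB5* is the one gene past the limit and *CLB6* is not. Of the G1 cyclin genes *CLN3*, which starts the cycle in response to growth, was 1.92-fold lower (-3.81 against -4.76), and *CLN1* and *CLN2* had ratios of 0.01 and 0.29. The lists of genes induced with *CLB2*, of G1/S genes and of replication licensing genes had at most 1 gene past the limit in either direction, with medians of 0.03, 0.29 and -0.06, though 12 of 31 G1/S genes were higher with no scaling. All 11 histone genes were above 0, as were their medians under each scaling, and the variants *CSE4* (0.94) and *HTZ1* (0.88) were higher. *RNR2*, a ribonucleotide reductase subunit gene, was 2.33-fold higher, with levels of 1.18 and 2.40.

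Several phosphate genes were higher in the double mutant. Of 17 genes of the Pho4 regulon 6 were higher and 1 lower, with a median of 0.37, and 3 to 9 were higher under the scalings tried. *SPL2*, which restrains low-affinity phosphate uptake, had levels of -1.40 in *ccr4Δ* and 0.21 in *ccr4Δ pbp1Δ* cells and was 3.04-fold higher. *PHO84*, the high-affinity phosphate transporter gene, went from 0.93 to 2.24, 2.47-fold higher, and *PHM6* from -4.89 to -3.74. The acid phosphatase gene *PHO5* was at 0.59. *PHM8*, a phosphatase gene, was lower, at -0.73. The wild-type levels in stationary phase were 2.10 for *SPL2* and 3.78 for *PHO84*, so the double mutant lay between the single mutant and wild-type cells.

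Iron genes had no settled direction. As given, 7 of 26 were higher and 3 lower with a median of 0.05, and with *ACT1* as the reference 1 was higher and 5 lower with a median of -0.15. *FRE3*, a ferric reductase gene (0.80), and the multicopper oxidase genes *FET5* (0.77) and *FET3* (0.76) were among the higher ones, while *ISU1*, the scaffold of iron-sulfur clusters, was 2.54-fold lower and the heme oxygenase gene *HMX1* 2.08-fold. Antioxidant enzymes had 8 of 32 genes higher and 1 lower, with a median of 0.26 that stayed above 0 under each scaling. *GPX1*, a glutathione peroxidase gene, was 2.82-fold higher with levels of -2.15 and -0.66, the glutaredoxin gene *GRX6* 2.16-fold, and the mitochondrial peroxiredoxin gene *PRX1* 1.82-fold. *AHP1* was the lower gene, at -0.75. Ergosterol genes had 7 of 27 lower and 1 higher, and their median of -0.17 turned to 0.06 with no scaling. *ERG5*, the C-22 desaturase gene, was 2.73-fold lower, and *ARE2*, a sterol acyltransferase gene, was higher at 0.82.

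Of genes that mark stationary phase 4 of 28 were higher and 4 lower, near the shares of 10.4% and 10.8% over all genes. Their median was -0.06, and with *ACT1* as the reference 2 were higher and 7 lower. *SNO1* and *SNZ1*, which work together in vitamin B6 synthesis, were 3.83-fold and 2.09-fold lower, while *SNZ2* and *SNZ3*, close copies of each other, were at 0.77 and 0.71. *PAI3* and *MOH1* were at 1.03 and 0.83, and the desiccation gene *HSP12* was at 0.17. Among 43 autophagy and vacuolar protease genes 11 were higher and 2 lower, or 3 and 3 with *ACT1* as the reference. *ATG41* stood apart at 5.08-fold lower, with levels of 1.53 and -0.82 against -2.34 in wild-type cells. The higher ones included *ATG10* (0.95), of the conjugation system, and *ATG34* (0.90), a cargo receptor. Of 33 meiosis and sporulation genes 10 were higher and 3 lower, or 5 and 4 with *ACT1* as the reference. *SPR28*, a sporulation septin gene, and *SPO13* had ratios of 1.56 and 1.47, the second from dim levels of -6.49 and -5.02.

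For genes near Pbp1 and Ccr4 in function the counts depended on the scaling. As given, none of the 8 measured Ccr4-Not subunit genes, the 11 partners of Pbp1, Pab1 and the Pan2-Pan3 deadenylase, or the 6 PUF family genes of RNA-binding proteins was past the limit. With no scaling 4 of the 11 partners and 2 of the 8 Ccr4-Not genes were higher, and with *ACT1* as the reference 2 Ccr4-Not genes and 1 PUF gene were lower. *PAB1* had a ratio of 0.21, *POP2*, the other deadenylase gene of the complex, -0.06, and *MPT5* -0.44. Of 22 decapping and decay genes 4 were higher and none lower, with a median of 0.35. All 7 *LSM1* to *LSM7* genes, whose proteins form the ring that binds deadenylated mRNA, were above 0, and *LSM5* (0.89), *LSM6* (0.70), *LSM7* (0.64) and the decapping activator gene *EDC2* (0.73) were past the limit. With no scaling 11 decay genes were higher, and with *ACT1* as the reference 1 was higher and 1 lower. Signalling genes of TORC1, protein kinase A and quiescence had 2 of 34 higher and 4 lower, where 10.4% and 10.8% of all genes were. The higher ones were the stress activator *MSN2* at 0.84 and *TAP42* at 0.62. Of the lower ones *NPR1*, a kinase under TORC1, was at -1.11 and *YAK1*, a kinase under protein kinase A, at -0.72. In the cell wall integrity pathway 3 of 19 genes were lower and 1 higher, and *SLT2*, the MAP kinase gene, was lowest at -0.70. The median of this list, -0.13, turned to 0.09 with no scaling, where none of its genes was lower and 1 was higher.

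The largest rises were smaller than the largest falls and were held by genes of mixed function. *BNA2*, which opens the synthesis of NAD from tryptophan, was the highest, with levels of -3.27 in *ccr4Δ* and -1.09 in *ccr4Δ pbp1Δ* cells against -0.87 in wild-type cells, and was 4.53-fold higher. *IZH4*, a zinc-related membrane protein gene, went from -2.08 to -0.11, 3.91-fold higher. *FRE7*, a reductase gene that responds to copper, was 3.60-fold higher, *SDS23* 3.50-fold and *INP51*, a phosphoinositide phosphatase gene, 3.42-fold. The meiotic telomere gene *NDJ1* and *ANS1* were 3.29-fold and 3.27-fold higher. When the genes were split into 5 equal bins by level, 7 of the 15 highest genes and 1 of the 15 lowest lay in the dimmest bin. Among these dim genes YFL012W had spot ratios of 1.82 and 2.33, and *DMO1* of 1.64 and 2.06. YKL107W and YER187W were 3.26-fold and 3.11-fold higher. A probe with no gene name in the files or the RefSeq table was 3.46-fold higher.

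At the low end outside the lists, YMR173W-A was second to *MET17*, with levels of 0.58 and -2.81 and 10.4-fold lower. Its systematic name lies next to that of the stress gene *DDR48*, which was 3.72-fold lower, from 2.08 to 0.19. The probe sequences were not used here, so hybridisation of 1 transcript to both probes was not checked. A further 246 genes were well above background in *ccr4Δ* cells and not in *ccr4Δ pbp1Δ* cells, and none the other way round. The *ccr4Δ pbp1Δ* array had the higher floor, since its lowest measured level was -7.82 against -9.51. Taking that floor into account, 20 of the 246 were at least 1.5-fold lower. After *PBP1* these were led by YGL182C (at least 3.68-fold), *IME4* (at least 3.34-fold), an mRNA methyltransferase gene of meiosis, YPR002C-A (3.21-fold), *GAT4* (2.72-fold) and YOL106W (2.24-fold), each as a bound.

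The log phase arrays of the same strains share no array with the comparison above. There, 90 of 5916 genes were higher in *ccr4Δ pbp1Δ* cells (1.52%) and 414 lower (7.00%), so fewer genes were past the limit than in stationary phase. Of the 632 genes lower in stationary phase and measured in both phases, 112 or 17.7% were lower in log phase, and these were 27.5% of the genes lower in log phase. Of 597 genes higher in stationary phase, 31 or 5.19% were higher in log phase, which were 38.3% of the genes higher there, and 50 or 8.38% were lower. Across the 5831 genes measured on all 4 arrays, Spearman's rho of the 2 ratios was 0.15, a description over genes, which are not independent replicates.

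**Figure D5:**
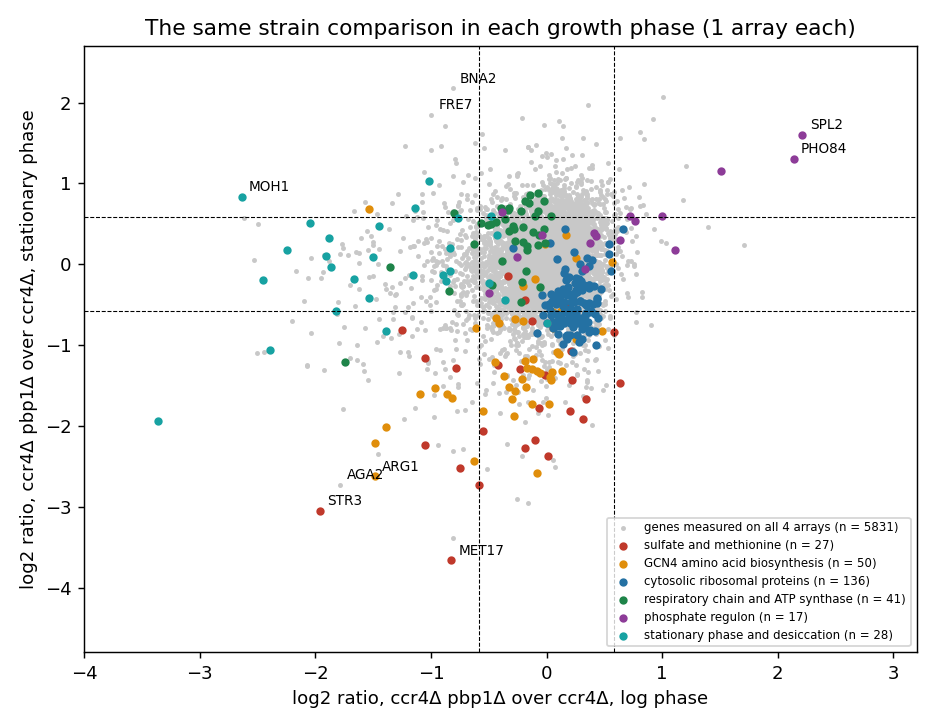
Each point is a gene measured on all 4 mutant arrays, with the log2 ratio of *ccr4Δ pbp1Δ* over *ccr4Δ* in log phase on the x axis and in stationary phase on the y axis. Dashed lines mark 1.5-fold. *SPL2* and *PHO84* lie high on both axes and *STR3* and *ARG1* low on both, ribosomal protein genes lie right of 0 and below it, and stationary phase genes spread to the left.

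Members of the lists behaved in different ways in log phase. The sulfate and methionine genes had a median of -0.19 with 8 of 27 lower, among them *STR3* at -1.96, and 1 higher. The 6 genes of methionine transport and S-adenosylmethionine, all lower in stationary phase, were all above 0 in log phase. Their log phase median was 0.28, with *MUP1* lowest at 0.01 and 1 gene past the limit. *PDR12*, outside the list, was at -0.16. The amino acid synthesis genes had a median of -0.18 and 10 of 50 lower, with *ARG1* and *HIS4* each at -1.48. Of the a-specific genes *AGA2* was at -1.79 and *MFA1* at -0.81, while *STE2*, *MFA2* and *BAR1* were at -0.01, -0.04 and -0.20. None of the 17 genes of the daughter and separation list was past the limit. Phosphate genes were higher in both phases, 8 of 17 in log phase, with *SPL2* at 2.21 and *PHO84* at 2.14. Ribosomal protein genes, with a stationary phase median of -0.53, had 0.22 in log phase with 1 higher and none lower. The stationary phase genes went from a median of -1.42 in log phase, with 23 of 28 lower, to -0.06 in stationary phase. Whether any of these differences between growth phases exceeds the spread between cultures was not tested, since there is 1 array of each.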

How the data were processed

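The scanner intensities that the authors deposited came from Feature Extraction 11.0.1.1, on 1-colour Agilent yeast arrays of 12512 spots that were not controls, each hybridised with labelled RNA from 100 ng of total RNA. A second deposited table of intensity values has the same sorted values in every array, as quantile normalization gives, and 6256 of its 6316 rows matched a probe. From the deposited processed intensity, spots marked as outliers were left out, log2 was taken, each array's 75th percentile was taken off, and spots and then probes of a systematic name were averaged. Background treatment by Feature Extraction precedes these values and mostly affects dim genes. A gene was measured where both spots of at least 1 probe were well above background. For a gene not so on 1 array, the fold is a bound against the lowest measured level of that array.

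With 1 array per condition no test was made. The members and the 52 gene lists were chosen with earlier results of these data known. The 23 divisions of lists were made after the values were seen. Named genes are the 15 highest and 15 lowest ratios, up to 6 members past 1.5-fold for each list, the leading bounds, the *CLB* and *CLN* genes and the genes that define a list. *SER3*, *FUS2*, *MAK21*, *FBP1*, *IDP2*, *SFC1*, *ADR1*, *ARO10*, *DDR48*, *SAM4*, *BAT2* and others given to complete a pathway or a count are outside the rule and were added with their values known. Symbols came from RefSeq assembly R64 (5720 of 6225 names), which is not the sacCer2 build of the array design, so no coordinates are given. Alternatives were other scalings, quantile normalization, normexp with an offset of 50 (limma 3.58.1, R 4.3.3) on the median signal because no mean signal column is present, the authors' processed intensities, *ACT1* as the reference, no filter, a 2-fold limit and the brightest probe. The calculation of ratios and calls was run on simulated data with planted changes and spot noise only. These hold no spread between cultures, so they lend the calls no support. Other steps used Python 3.11.15 and pandas 2.3.3. Promoter motifs were not analysed here. Results for some withheld items are not reported here.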

Additional observations from a re-analysis of the deposited data

Results flagged for a closer look

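Among the genes named here, 20 were past 1.5-fold in opposite directions in stationary and in log phase, all of them higher in *ccr4Δ pbp1Δ* than in *ccr4Δ* cells in stationary phase and lower in log phase. The difference between the growth phases was not tested, since each ratio rests on 1 array per strain. Over all 5831 genes measured on the 4 arrays, 54 did so, 50 in that direction and 4 in the other. In log phase 407 of these 5831 genes were lower and 81 higher, so the first direction had more genes to draw on. The 50 were 8.38% of the genes higher in stationary phase, near the 7.00% lower over all genes measured in log phase. The log2 ratio in stationary phase minus that in log phase was 3.47 for *MOH1*, 2.99 for *BNA2*, 2.85 for *FRE7* and 2.58 for YKL107W. It was 2.22 for *SER3*, 2.21 for *PUT4*, 2.11 for *GPX1*, 2.10 for *SFC1*, 2.09 for *HXT5* and 2.04 for *PAI3*. For *FBP1*, *IDP2* and the activator *ADR1*, of the list for growth on non-fermentable carbon, it was 1.86, 1.61 and 1.71. *SNZ3* and *SNZ2* had 1.58 and 1.54. The remaining genes were *PRX1* (1.48), *FUS2* (1.47), *MF(ALPHA)1* (1.45), *SDH2* (1.43) and *SSA1* (1.28).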

How the results depend on the processing

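Leaving out a replicate or pairing was not possible with 1 array per strain and growth phase. With no scaling 1365 genes were higher and 330 lower, with *ACT1* as the reference 244 and 1117, and at 2-fold 98 and 217. Under the other settings both counts stayed within 1.5 times. No list median and no named gene past 1.5-fold changed sign. Of the 26 named genes within it, 5 changed sign with no scaling, 6 with *ACT1* as the reference and 1, *CLN1*, after normexp, and of the 47 list medians within it 11, 17 and 2 did, with 2 to 4 under median scaling, quantile normalization and the authors' values. With no scaling and with *ACT1* as the reference, the median ratio was -1.24 and -1.67 for sulfate and methionine genes, -1.08 and -1.51 for amino acid synthesis, -1.14 and -1.57 for a-specific, -0.68 and -1.11 for daughter, -0.30 and -0.73 for ribosomal protein, -0.27 and -0.70 for gluconeogenesis, -0.11 and -0.54 for permease, 0.67 and 0.24 for respiratory, and 0.59 and 0.17 for phosphate genes. After quantile normalization and in the authors' processed values it was -1.66 and -1.66 for sulfate and methionine, -1.40 and -1.41 for amino acid synthesis, -0.38 and -0.35 for gluconeogenesis, -0.44 and -0.43 for permease, and 0.22 and 0.22 for respiratory genes, and -0.59 in the authors' values for ribosomal proteins. The cause of these shifts was not tested beyond the 2 scalings, which move every gene alike. Of the 238 named genes past 1.5-fold, 198 stayed past it with *ACT1* as the reference, 206 with no scaling and 224 to 238 under the others. Dim genes are the least certain, and the higher floor of the *ccr4Δ pbp1Δ* array limits falls to bounds. The brightest-probe setting touches the 29 genes with more than 1 probe. The promoter motif shares were not run.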
